A study of Mus musculus with 12 samples.

Results

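The SWI/SNF chromatin remodelling genes on a mouse cancer pathway panel were examined in *Dusp4*-silenced liver cancer cells. The set was fixed by name as *Smarca4*, *Smarcb1*, *Arid1a*, *Arid1b*, *Arid2*, *Pbrm1* and *Atrx*, and all 7 were among the 770 genes of the NanoString® panel. *Arid2* stood at the lower limit of the deposited values in all 12 samples, so 6 of the 7 could be tested. The tested 6 had been kept for being above that limit in at least 1 sample, and they were above it in every sample. *Atrx* is not a SWI/SNF subunit but a related remodeller, so the set is called the remodelling genes here.

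The samples fell into 4 groups of 3 biological replicates. AKT Cre/NRAS cells received *Dusp4* siRNA or SCR, the negative control siRNA pool, and AKT/NRAS cells received the same pair of pools. Both lines are murine and go back to a hepatocellular carcinoma induced by injecting myristoylated, floxed AKT together with mutant *NRAS*. In AKT Cre/NRAS the AKT transgene had been removed with Cre recombinase, while *NRAS* was kept in both lines. Each genotype was represented by 1 cell line, so the Cre step cannot be told apart from any other difference between these lines. The hepatocyte markers *Cebpa* and *Ghr* were above the floor and *Fgf21* was not. The biliary and progenitor markers *Sox9*, *Prom1* and *Spp1* summed to between 101970 and 161830 normalized counts in the AKT Cre/NRAS samples, against between 15321 and 19905 in the AKT/NRAS samples. A sum of 3 probes does not show which gene carries it. After siRNA in AKT Cre/NRAS the 3 did not move together, with log2 differences of 0.62 (*Sox9*), 0.36 (*Prom1*) and -0.35 (*Spp1*).

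SWI/SNF complexes use ATP to slide or evict nucleosomes and so open promoters and enhancers to transcription factors. *Smarca4* encodes BRG1, an ATPase that drives the complex, and *Smarcb1* encodes a core subunit. ARID1A and ARID1B are alternative subunits of the BAF form, whereas ARID2 and PBRM1 (polybromo) belong to the PBAF form. *Atrx* encodes an ATPase of the same wider family that places the histone variant H3.3 at repetitive DNA together with DAXX. Several of these genes, *ARID1A* and *ARID2* among them, are recurrently mutated in human hepatocellular carcinoma.

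Because *Arid1a*, *Pbrm1* and *Atrx* moved together after silencing in AKT Cre/NRAS while *Smarcb1* did not pass the test, their promoters are shown first. RefSeq (GRCm38.p6) gave a promoter for 6 of the 7 genes, and the 250 bases upstream of the start are printed where that window lay wholly outside the annotated gene. *Smarcb1* (chr10:75896769-75921614) is on the minus strand and its window is chr10:75921615-75921864. *Arid1a* (chr4:133679008-133756769) is also on the minus strand, with the window at chr4:133756770-133757019 at the upstream of its 2 annotated starts. *Pbrm1* (chr14:31019138-31121592) is on the plus strand, with the window at chr14:31018888-31019137. *Atrx* (chrX:105797615-105929372) is on the minus strand, with the window at chrX:105929373-105929622. Each window is given 5′ to 3′ on the strand of its gene. Capitals mark matches on either strand to CACGTG (an E-box), GGGCGG (the box bound by SP and KLF factors), CCGGAAG (ETS factors), TGACGTCA (CREB) or TGACTCA (AP-1).
Smarcb1: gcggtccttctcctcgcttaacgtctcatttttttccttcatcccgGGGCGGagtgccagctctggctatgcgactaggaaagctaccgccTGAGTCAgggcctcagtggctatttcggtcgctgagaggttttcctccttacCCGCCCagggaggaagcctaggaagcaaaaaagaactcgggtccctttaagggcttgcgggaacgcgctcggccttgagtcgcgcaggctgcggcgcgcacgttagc
Arid1a: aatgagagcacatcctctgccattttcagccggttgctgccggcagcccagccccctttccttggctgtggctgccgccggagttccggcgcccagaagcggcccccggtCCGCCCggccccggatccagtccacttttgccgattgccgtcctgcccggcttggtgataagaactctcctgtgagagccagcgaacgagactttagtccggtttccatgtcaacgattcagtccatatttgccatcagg
Pbrm1: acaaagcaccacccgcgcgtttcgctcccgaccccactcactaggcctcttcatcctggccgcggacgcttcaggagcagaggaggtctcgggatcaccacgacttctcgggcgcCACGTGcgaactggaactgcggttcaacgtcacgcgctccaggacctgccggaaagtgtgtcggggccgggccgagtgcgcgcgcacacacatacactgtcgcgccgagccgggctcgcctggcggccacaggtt
Atrx: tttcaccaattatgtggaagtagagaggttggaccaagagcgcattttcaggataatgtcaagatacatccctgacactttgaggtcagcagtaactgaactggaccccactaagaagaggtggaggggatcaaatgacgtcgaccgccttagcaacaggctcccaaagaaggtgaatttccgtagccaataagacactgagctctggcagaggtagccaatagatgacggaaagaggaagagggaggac
The *Smarcb1* window held 2 SP/KLF boxes and 1 AP-1 match, the *Arid1a* window 1 SP/KLF box and the *Pbrm1* window 1 E-box. The *Atrx* window held none of these motifs in these letters. Among 32851 promoters of the same length, 32.7% held an SP/KLF box, 6.02% an E-box, 6.91% the ETS letters, 1.55% the CREB letters and 4.46% the AP-1 letters. The GC content was 59.6% in *Smarcb1*, 61.2% in *Arid1a* and 67.2% in *Pbrm1*, against a median of 52.4% over all promoters. *Atrx* was below that median at 48.4%. The windows held 21, 18, 31 and 6 CpG dinucleotides in the same order, and the median promoter held 6. No listed motif was found in all 4 windows. Of the windows not printed, that of *Smarca4* held 3 SP/KLF boxes, that of *Arid1b* 1 and that of the other *Arid1a* start 7. These windows reach into the annotated genes. *Smarca4* and *Arid1b* also rose after silencing in AKT Cre/NRAS, so SP/KLF boxes were found both for *Smarcb1* and for genes that rose. A link between these motifs and the response was not tested.

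Values are normalized counts, that is barcode counts scaled to the positive controls by the authors and here to 15 reference genes, and probes differ in efficiency, so levels were compared within a gene only. Across the samples the recovered counts summed to between 641790 and 1081646. A raised floor of 27.1 normalized counts was common to all samples. Differences are log2 fold changes fitted with limma, p values were adjusted over all genes tested by Benjamini-Hochberg, and genes with an adjusted p under 0.05 are said to have changed. RNA was measured in bulk, so a larger share of expressing cells and more RNA per cell cannot be told apart.

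*Dusp4* itself was checked first, since it is the silenced gene. In AKT Cre/NRAS the mean of 4023 ± 221 normalized counts after siRNA stood against 5556 ± 963 after SCR, and in AKT/NRAS the mean of 370.1 ± 19.7 after siRNA stood against 1228 ± 43.8 after SCR (SD, n = 3 in each group). The difference in AKT/NRAS was -1.73 (limma adjusted p = 1.13e-06) and passed in all 7 scalings. The call in AKT Cre/NRAS (-0.45, limma adjusted p = 0.0178) was lost without siRNA replicate 1 (-0.47), siRNA replicate 3 (-0.41) or SCR replicate 2 (-0.41). It passed in 4 of 7 scalings, ranged from -0.81 to 0.00098 over them, and was at -0.66 without SCR replicates 2 and 3. It did not pass with no filter (limma adjusted p = 0.106) or with Benjamini-Yekutieli adjustment (limma adjusted p = 0.121). The log2 ratio of *Rpl19*, a ribosomal protein gene, to *Polr2a*, the large subunit of RNA polymerase II, was 4.72, 4.92 and 5.03 after siRNA and 5.48, 6.36 and 6.88 after SCR in AKT Cre/NRAS. It lay between 3.86 and 3.92 after siRNA and between 3.81 and 3.87 after SCR in AKT/NRAS. The AKT Cre/NRAS SCR libraries, replicates 2 and 3 above all, therefore stood apart. The members' fitted differences that rest on them, and the medians of the other regulators, are also given without those 2.

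The ATPase gene *Smarca4* (chr9:21616106-21704230) separated all 4 groups. It measured 1388, 1361 and 1342 normalized counts in AKT Cre/NRAS siRNA and 1109, 819 and 811 in AKT Cre/NRAS SCR. In AKT/NRAS it measured 2277, 2349.8 and 2253 after siRNA and 2608, 2653 and 2548 after SCR. No value of one group fell within the range of another, and the order of the groups from low to high was AKT Cre/NRAS SCR, AKT Cre/NRAS siRNA, AKT/NRAS siRNA and AKT/NRAS SCR. *Smarca4* thus rose after siRNA in AKT Cre/NRAS and fell after siRNA in AKT/NRAS.

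*Smarcb1*, the core subunit gene, differed little between any groups with the reference gene scaling. It measured 459.7, 487 and 476 normalized counts in AKT Cre/NRAS siRNA and 474, 420.0 and 420.3 in AKT Cre/NRAS SCR. The AKT/NRAS samples gave 466, 464 and 415 after siRNA and 459, 461 and 418 after SCR. All 4 groups overlapped, and the highest group mean was 1.08-fold the lowest. With 360 to 552 recovered counts per sample, counting error alone was at most 5.27% of a value.

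*Arid1a*, the BAF subunit gene, had the widest span of the 6, with the highest group mean at 3.73-fold the lowest. It measured 539, 443 and 443 normalized counts in AKT Cre/NRAS siRNA and 318, 241 and 224 in AKT Cre/NRAS SCR. In AKT/NRAS it measured 902, 951 and 870.05 after siRNA and 999.75, 983 and 936 after SCR. Both AKT Cre/NRAS groups lay below both AKT/NRAS groups, and within AKT/NRAS the ranges of siRNA and SCR overlapped. *Arid1a* also gave the lowest depth, with 201 recovered counts in its weakest sample and a counting error of 7.05% there.

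*Arid1b* (chr17:4994297-5347656), the alternative BAF subunit gene, had the same order of the groups with a smaller span of 2.29-fold. It measured 499.9, 506 and 461 normalized counts in AKT Cre/NRAS siRNA and 363, 268 and 259 in AKT Cre/NRAS SCR. The AKT/NRAS samples gave 630.5, 573 and 575 after siRNA and 616, 689 and 733 after SCR. Only the AKT/NRAS groups overlapped each other. The spread in AKT Cre/NRAS SCR, an SD of 57.6 on a mean of 296, came from replicate 1 above the other two.

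*Pbrm1*, which encodes the bromodomain subunit of PBAF, had another order, with AKT Cre/NRAS siRNA at the top. It measured 655, 672 and 608 normalized counts in AKT Cre/NRAS siRNA and 504, 407 and 397 in AKT Cre/NRAS SCR. In AKT/NRAS it measured 513, 544 and 512 after siRNA and 571, 503 and 513 after SCR. All AKT Cre/NRAS siRNA samples lay above the samples of the other groups, and the 2 AKT/NRAS groups were not separated from each other. *Arid2* (chr15:96287522-96405463), the other PBAF subunit gene, was listed at the floor value of 20 in every sample before scaling. The highest deposited value of the negative controls was also 20, which is the same floor, so the true background is not known. No level, fold or group order can be given for *Arid2*.

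*Atrx*, the H3.3-linked remodeller, stood apart in AKT Cre/NRAS SCR only. It measured 1166, 1184 and 1132 normalized counts in AKT Cre/NRAS siRNA and 934, 727 and 738 in AKT Cre/NRAS SCR. The AKT/NRAS samples gave 1194, 1171 and 1119.7 after siRNA and 1196, 1212 and 1157 after SCR. The AKT Cre/NRAS siRNA and both AKT/NRAS groups overlapped. For all 6 genes, replicate 1 was the highest of the 3 AKT Cre/NRAS SCR samples, and that replicate also had the lowest *Rpl19* to *Polr2a* ratio of its group.

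**Figure D1:**
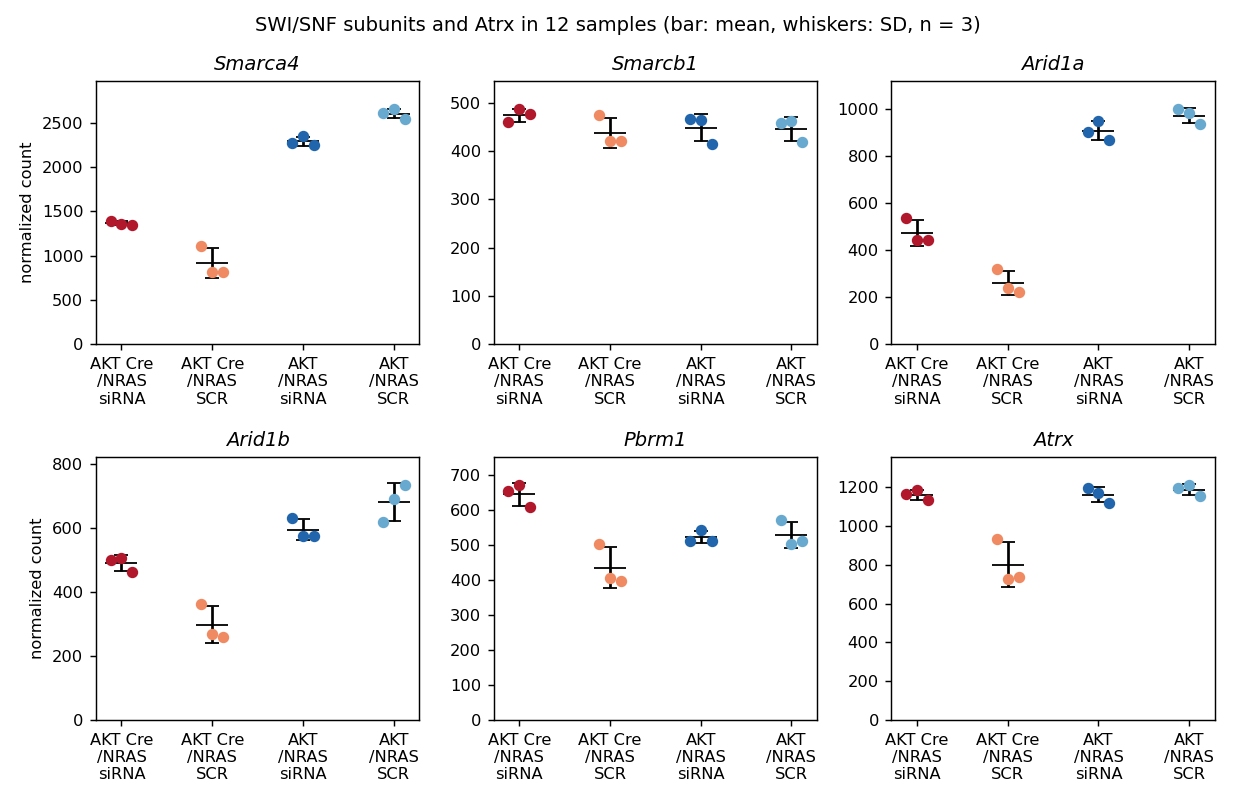
Normalized counts (vertical axes, each starting at 0) of the 6 remodelling genes above the floor, with 3 points per group, the mean as a bar and the SD as whiskers. *Smarca4*, *Arid1a* and *Arid1b* were lower in both AKT Cre/NRAS groups than in both AKT/NRAS groups, while *Smarcb1* overlapped throughout.

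In AKT Cre/NRAS, 5 of the 6 genes rose after *Dusp4* siRNA. Across the panel 40.6% of 503 genes tested rose and 5.37% fell, so rises were common, and the median was 0.58 for the 6 genes against 0.23 for all genes tested. *Arid1a* averaged 475 ± 55.3 normalized counts after siRNA and 261 ± 50.3 after SCR (SD, n = 3 each), a difference of 0.87 (standard error 0.15, limma adjusted p = 0.00355). *Arid1b* averaged 489 ± 24.2 after siRNA and 296 ± 57.6 after SCR (SD, n = 3 each), a difference of 0.74 (standard error 0.14, limma adjusted p = 0.00381). The 2 alternative BAF subunit genes therefore rose side by side.

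*Smarca4* averaged 1364 ± 23.1 normalized counts after siRNA and 912.5 ± 169.8 after SCR in AKT Cre/NRAS (SD, n = 3 each), a difference of 0.59 (standard error 0.12, limma adjusted p = 0.00519). *Pbrm1* averaged 645 ± 33.1 after siRNA and 436 ± 59.2 after SCR (SD, n = 3 each), a difference of 0.57 (limma adjusted p = 0.00479). *Atrx* averaged 1161 ± 26.7 after siRNA and 799.8 ± 117 after SCR (SD, n = 3 each), a difference of 0.55 (limma adjusted p = 0.00474). For these 5 genes all siRNA samples lay above all SCR samples. The groups of *Dusp4*, *Rpl19* and *Polr2a* did not overlap either, and the share of such genes over the panel was not counted. *Smarcb1* averaged 474 ± 13.5 after siRNA and 438 ± 30.9 after SCR (SD, n = 3 each), and its difference of 0.12 had a 95% interval of -0.10 to 0.33 (limma adjusted p = 0.357).

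The size of these rises depended on the scaling. Over 7 scalings all 5 differences were positive, but none passed with the deposited values, which carry no reference gene step. *Arid1a* passed in 6 of 7 (0.52 to 1.32), *Arid1b* in 5 (0.38 to 1.19), *Atrx* in 5 (0.19 to 1.00), *Smarca4* in 4 (0.24 to 1.05) and *Pbrm1* in 4 (0.22 to 1.02). *Smarcb1* changed sign, from -0.24 to 0.57, and passed once as lower, when samples were centred on their medians. Without AKT Cre/NRAS SCR replicates 2 and 3 the differences were 0.57 for *Arid1a*, 0.43 for *Arid1b*, 0.35 for *Pbrm1*, 0.31 for *Atrx* and 0.30 for *Smarca4*. In that fit the 1 SCR library left was assumed to vary like the siRNA samples. *Polr2a* rose by 0.74 and *Rpl19*, itself among the 15 reference genes, fell by 0.61 in the same comparison. Other reference genes changed as well. *Hprt* (-0.46), *Nubp1* (-0.41) and *Oaz1* (-0.35) fell, while *Sap130* (0.54), *Abcf1* (0.52) and *Sdha* (0.44) rose. The rest of the 15 did not pass. The part of *Polr2a* and of these reference genes in the rises of the remodelling genes was not tested.

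In AKT/NRAS, 1 of the 6 genes changed after *Dusp4* siRNA, against 5.44% of 496 genes tested that rose and 11.9% that fell. *Smarca4* averaged 2293 ± 50.4 normalized counts after siRNA and 2603 ± 52.7 after SCR (SD, n = 3 each), and it fell by 0.18 on the log2 scale (standard error 0.03, limma adjusted p = 0.00916). This small fall passed in 4 of 7 scalings and turned positive (0.15) with the deposited values. It also lost its call with 1 fit over all 4 groups (limma adjusted p = 0.339). *Arid1b* averaged 593 ± 32.5 after siRNA and 679 ± 59.0 after SCR (SD, n = 3 each), with a difference of -0.19 that did not pass (limma adjusted p = 0.113) and passed without SCR replicate 1 (-0.26). Among the 6 genes, the ranges of siRNA and SCR overlapped for every gene but *Smarca4*. How often they did so over the panel was not counted.

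The remaining differences in AKT/NRAS were small. *Arid1a* averaged 907 ± 40.7 normalized counts after siRNA and 973 ± 33.0 after SCR (SD, n = 3 each), a difference of -0.10 (limma adjusted p = 0.191). *Pbrm1* differed by -0.01 with a 95% interval of -0.16 to 0.13, *Atrx* by -0.03 with -0.12 to 0.06, and *Smarcb1* by 0.01 with -0.15 to 0.17. The median over the 6 genes was -0.07, beside -0.03 for all genes tested. The *Rpl19* to *Polr2a* ratio hardly moved in this comparison, by contrast with AKT Cre/NRAS.

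The response to siRNA differed between the lines for the same 5 genes. The silencing differed too, since *Dusp4* itself was at -0.45 in AKT Cre/NRAS and at -1.73 in AKT/NRAS. The part of that difference in the responses was not tested. The interaction term over all 12 samples, the difference in AKT Cre/NRAS minus that in AKT/NRAS, was 0.97 for *Arid1a* (standard error 0.17, limma adjusted p = 0.00212) and 0.93 for *Arid1b* (standard error 0.17, limma adjusted p = 0.00237). It was 0.78 for *Smarca4* (limma adjusted p = 0.00232), 0.59 for *Pbrm1* (limma adjusted p = 0.00483) and 0.58 for *Atrx* (limma adjusted p = 0.00334). *Smarcb1* did not pass, at 0.11 with a 95% interval of -0.12 to 0.33. Of 525 genes tested, 40.6% had a positive and 4.76% a negative interaction past the threshold, and the median was 0.68 for the 6 genes against 0.25 for all. No member passed with the deposited values, where *Arid1a* was at 0.55 and *Arid1b* at 0.51. *Pbrm1* passed in 4 of 7 scalings and *Atrx* in 5, and after centring on sample medians they were at 0.17 each and did not pass. *Smarcb1* passed with the opposite sign after centring (-0.30, limma adjusted p = 0.0187) and with quantile normalization (-0.28, limma adjusted p = 0.0331). Without AKT Cre/NRAS SCR replicates 2 and 3, which left 1 library in that group, the 5 genes were at 0.35 (*Atrx*) to 0.67 (*Arid1a*).

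**Figure D2:**
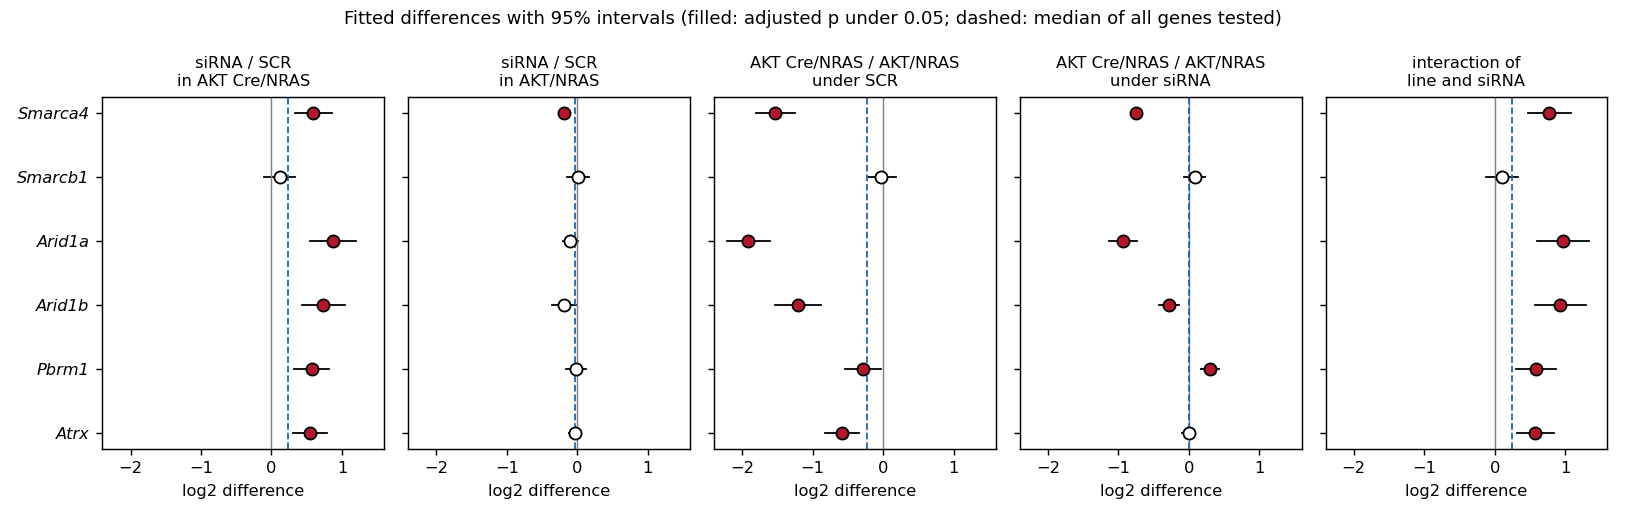
Fitted log2 differences (horizontal axes) of the 6 genes in the 5 comparisons, with 95% intervals as lines, filled points for an adjusted p under 0.05 and the median of all genes tested as a dashed line. After siRNA in AKT Cre/NRAS 5 genes lay to the right of the panel median of 0.23, while under SCR *Arid1a* (-1.91) and *Smarca4* (-1.53) lay far to the left of it.

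Under SCR, 5 of the 6 genes were lower in AKT Cre/NRAS than in AKT/NRAS. Across the panel 28.9% of 515 genes tested were higher and 48.0% lower, and the median was -0.89 for the 6 genes against -0.22 for all genes tested. *Arid1a* averaged 261 ± 50.3 normalized counts in AKT Cre/NRAS and 973 ± 33.0 in AKT/NRAS (SD, n = 3 each), a difference of -1.91 (standard error 0.13, limma adjusted p = 2.57e-06). *Smarca4* averaged 912.5 ± 169.8 in AKT Cre/NRAS and 2603 ± 52.7 in AKT/NRAS (SD, n = 3 each), a difference of -1.53 (standard error 0.12, limma adjusted p = 6.50e-06). *Arid1b* averaged 296 ± 57.6 in AKT Cre/NRAS and 679 ± 59.0 in AKT/NRAS (SD, n = 3 each), a difference of -1.21 (standard error 0.14, limma adjusted p = 6.56e-05). The ATPase gene and both alternative BAF subunit genes were lower in AKT Cre/NRAS in all 7 scalings and passed in each. *Arid1a* ranged from -2.33 to -1.40, *Smarca4* from -1.95 to -1.02 and *Arid1b* from -1.63 to -0.70 over them.

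*Atrx* averaged 799.8 ± 117 normalized counts in AKT Cre/NRAS SCR and 1188 ± 28.3 in AKT/NRAS SCR (SD, n = 3 each), a difference of -0.58 (standard error 0.11, limma adjusted p = 0.000992). It passed in 6 of 7 scalings and was at -0.07 with the deposited values. *Pbrm1* averaged 436 ± 59.2 in AKT Cre/NRAS and 529 ± 36.6 in AKT/NRAS (SD, n = 3 each), a difference of -0.29 (limma adjusted p = 0.0454) with overlapping ranges. The *Pbrm1* call passed in 2 of 7 scalings and was positive in 3, up to 0.22. It was also lost without AKT Cre/NRAS SCR replicate 2 (-0.24) or 3 (-0.22) and without AKT/NRAS SCR replicate 1 (-0.23), 2 (-0.32) or 3 (-0.31). *Smarcb1* averaged 438 ± 30.9 in AKT Cre/NRAS and 446 ± 24.6 in AKT/NRAS (SD, n = 3 each), and its difference was -0.03 with a 95% interval of -0.23 to 0.18. Its sign turned with the scaling, from -0.45 to 0.48, and it passed as higher after centring (0.33, limma adjusted p = 0.00227) and with quantile normalization (0.31, limma adjusted p = 0.00475). Leaving out AKT Cre/NRAS SCR replicates 2 and 3 left 1 library in that group. *Arid1a* was then at -1.61, *Smarca4* at -1.23, *Arid1b* at -0.90, *Atrx* at -0.35 and *Pbrm1* at -0.07.

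After *Dusp4* siRNA, where no SCR library entered the fit, AKT Cre/NRAS and AKT/NRAS were closer to each other in *Smarca4*, *Arid1a*, *Arid1b* and *Atrx* than under SCR. *Smarca4* was lower in AKT Cre/NRAS, at 1364 ± 23.1 normalized counts against 2293 ± 50.4 in AKT/NRAS (SD, n = 3 each), a difference of -0.75 (standard error 0.03, limma adjusted p = 5.70e-07). *Arid1a* was lower as well, at 475 ± 55.3 in AKT Cre/NRAS against 907 ± 40.7 in AKT/NRAS (SD, n = 3 each), a difference of -0.94 (standard error 0.08, limma adjusted p = 3.24e-05). *Arid1b* was lower by a smaller amount, at 489 ± 24.2 in AKT Cre/NRAS against 593 ± 32.5 in AKT/NRAS (SD, n = 3 each), a difference of -0.28 (limma adjusted p = 0.00412). It lost its call with the deposited values (-0.19) and with 1 fit over all 4 groups. *Smarca4* and *Arid1a* passed in all 7 scalings.

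*Pbrm1* went the other way under siRNA, at 645 ± 33.1 normalized counts in AKT Cre/NRAS against 523 ± 17.9 in AKT/NRAS (SD, n = 3 each), a rise of 0.30 (standard error 0.05, limma adjusted p = 0.00148) that passed in all 7 scalings. *Atrx* differed by -0.00 with a 95% interval of -0.09 to 0.09, and *Smarcb1* by 0.08 with -0.06 to 0.23. Of 522 genes tested, 36.6% were higher and 37.9% lower, and the members' 1 higher and 3 lower stand beside that background. The *Rpl19* to *Polr2a* ratio also differed between the lines under siRNA, 4.72 to 5.03 in AKT Cre/NRAS against 3.86 to 3.92 in AKT/NRAS. *Polr2a* was lower by 1.10 on the log2 scale there, and its part in the lower *Smarca4* and *Arid1a* values was not tested.

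**Figure D3:**
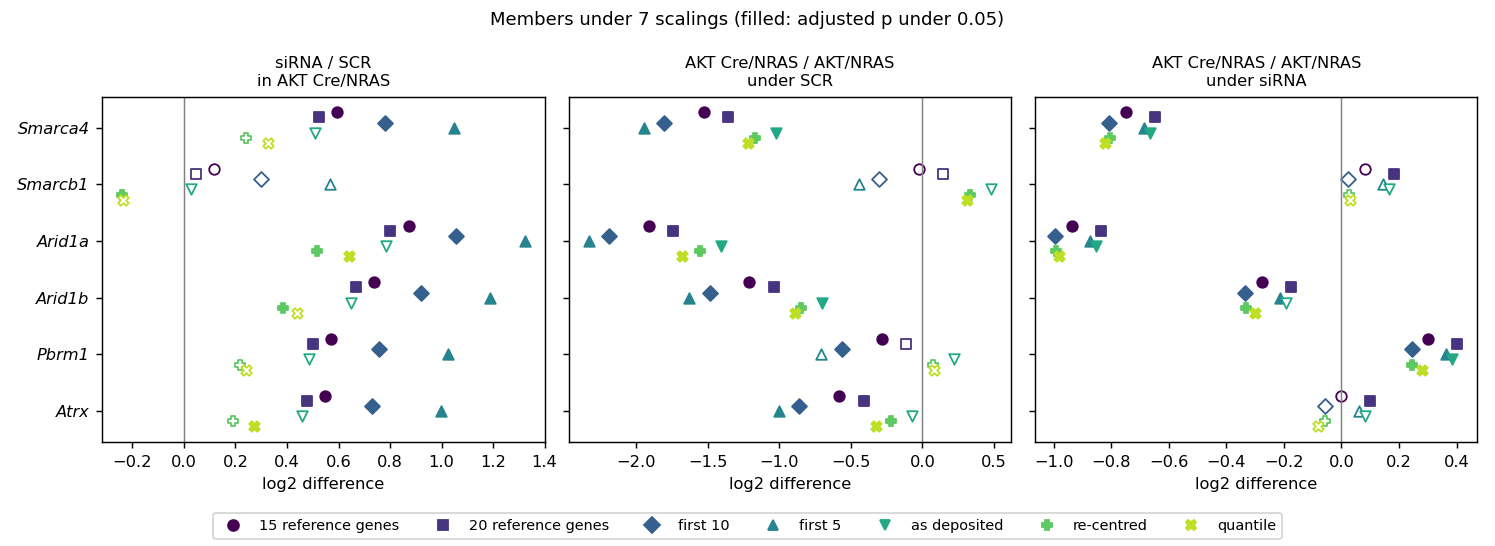
Log2 differences (horizontal axes) of the 6 genes under 7 scalings, 1 marker each, filled where the adjusted p was under 0.05. Under SCR and under siRNA *Smarca4* and *Arid1a* stayed on the lower side in every scaling, while *Smarcb1* took both signs after siRNA in AKT Cre/NRAS (-0.24 to 0.57).

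Ratios between members within a sample are not changed by scalings that multiply a whole sample by 1 factor, which covers those used here except quantile normalization, and 4 of them were formed after the values had been seen. The log2 ratio of *Smarca4* to *Smarcb1*, the ATPase against the core subunit, was 1.59, 1.48 and 1.50 in AKT Cre/NRAS siRNA and 1.23, 0.96 and 0.95 in AKT Cre/NRAS SCR. The AKT/NRAS values were 2.29, 2.34 and 2.44 after siRNA and 2.51, 2.52 and 2.61 after SCR. No 2 groups overlapped, and the ratio differed by -1.50 between AKT Cre/NRAS and AKT/NRAS under SCR and by -0.83 under siRNA. The siRNA difference was 0.48 in AKT Cre/NRAS and -0.19 in AKT/NRAS. The direction of the *Smarca4* differences relative to *Smarcb1* was therefore the same as with the reference genes. The ratio differences were not recomputed without AKT Cre/NRAS SCR replicates 2 and 3, and replicate 1 alone stood at 1.23. A ratio within a sample can still carry a difference between libraries, as that of *Rpl19* to *Polr2a* did.

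The ratio of the alternative BAF subunits, *Arid1a* to *Arid1b*, averaged -0.05 ± 0.15 in AKT Cre/NRAS siRNA and -0.18 ± 0.03 in AKT Cre/NRAS SCR on the log2 scale (SD, n = 3 each). The AKT/NRAS means were 0.61 ± 0.11 after siRNA and 0.52 ± 0.17 after SCR (SD, n = 3 each). The lines did not overlap in this ratio, but siRNA and SCR did in both. *Arid1a* to *Pbrm1*, the BAF against the PBAF subunit, averaged -0.45 ± 0.16 in AKT Cre/NRAS siRNA and -0.75 ± 0.08 in AKT Cre/NRAS SCR (SD, n = 3 each). It averaged 0.79 ± 0.03 after siRNA and 0.88 ± 0.08 after SCR in AKT/NRAS (SD, n = 3 each). The ratio was thus shifted between the lines by -1.63 under SCR and -1.24 under siRNA, without overlap.

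The ratio of the ATPase genes, *Smarca4* to *Atrx*, averaged 0.23 ± 0.03 in AKT Cre/NRAS siRNA and 0.18 ± 0.06 in AKT Cre/NRAS SCR on the log2 scale (SD, n = 3 each). It averaged 0.98 ± 0.04 after siRNA and 1.13 ± 0.01 after SCR in AKT/NRAS (SD, n = 3 each). The siRNA and SCR samples of AKT Cre/NRAS overlapped here, beside fitted rises of 0.59 for *Smarca4* and 0.55 for *Atrx*. Of 16 ratio comparisons, every one whose groups did not overlap gave the smallest p that an exact two-sided permutation test of 3 against 3 samples can give, 0.1, and 0.133 after Benjamini-Hochberg adjustment over the 16. None could pass the threshold in this design.

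**Figure D4:**
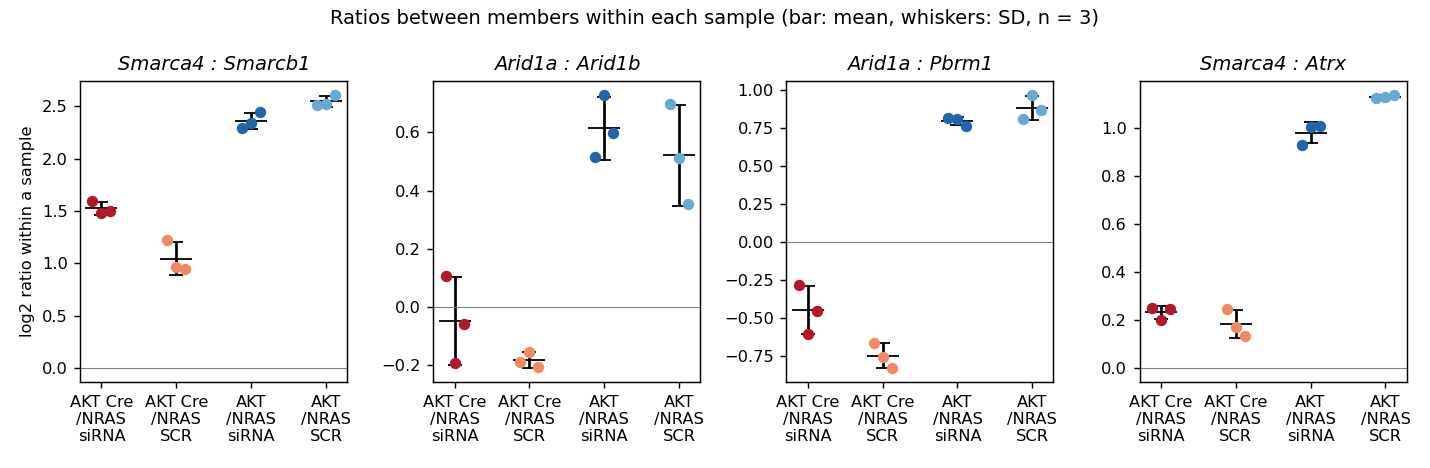
Log2 ratios between 2 genes of the same sample (vertical axes) for 4 pairs, with 3 points per group, the mean as a bar and the SD as whiskers. All 4 ratios were lower in AKT Cre/NRAS than in AKT/NRAS, by 1.50 for *Smarca4* to *Smarcb1* and by 1.63 for *Arid1a* to *Pbrm1* under SCR.

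The genes fell into different patterns over the 12 samples, given here as Pearson correlations of log2 values, with no test, since the samples share the 4 groups and the scaling. *Smarca4* and *Arid1a* correlated at 0.99, *Arid1a* and *Arid1b* at 0.96 and *Smarca4* and *Arid1b* at 0.95. *Smarcb1* correlated with *Smarca4* at 0.11 and *Pbrm1* with *Smarca4* at 0.35. Within groups, as deviations from the group means, these pairs correlated at 0.68 and 0.84. Over the 10 samples without AKT Cre/NRAS SCR replicates 2 and 3, *Smarca4* and *Arid1a* correlated at 0.99, *Smarca4* and *Smarcb1* at -0.55, and *Smarca4* and *Pbrm1* at -0.52. The genes most like *Smarca4* among 440 searched were *Shc2* (0.997), *Polr2a* and *Gsk3b* (0.994 each), and those most like *Arid1a* were *Fzd7* (0.995), *Notch2* and *Polr2a* (0.994 each). Both patterns thus tracked *Polr2a*, which differed by -1.90 between AKT Cre/NRAS and AKT/NRAS under SCR, beside -1.91 for *Arid1a*.

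*Arid1b* was most like *Flna* (0.99), *Med12* and *Smad3* (0.98 each). *Atrx* was most like *Ep300* (0.99), *Crebbp* and *Fn1* (0.98 each), of which *Ep300* and *Crebbp* encode the paralogous histone acetyltransferases p300 and CBP. *Pbrm1* was most like *Nsd1* (0.95), a histone methyltransferase gene, *Map3k5* (0.93) and *Sap130* (0.92), which is among the 15 reference genes. For *Smarcb1* the most alike genes reached only 0.81 (*E2f1*), 0.76 (*Casp8*) and 0.72 (*Whsc1l1*). These likenesses rest on all 12 samples and were not recomputed without the SCR libraries that stood apart.

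A list of 35 other chromatin regulators of the panel was counted beside the remodelling genes. It held histone- and DNA-modifying enzymes, their partners, *Hells*, *H3f3a* as the only histone gene, and architectural proteins. It did not hold all such genes of the panel. Outside it, *Hist1h3b* (-0.54) and *Hist2h3b* (-0.51) fell after siRNA in AKT Cre/NRAS, and *Bcor* (0.63), *Whsc1* (0.37) and *Whsc1l1* (0.33) rose. *Hdac3* and *Sap130* of the list are also among the 15 reference genes. After siRNA in AKT Cre/NRAS, 21 of the 35 rose, 1 fell and 13 did not pass, beside 40.6% and 5.37% of all genes tested, and the median was 0.36 beside 0.23. Without SCR replicates 2 and 3 the median of the 35 was 0.27, beside 0.16 for all genes tested. After centring on sample medians 4 rose and 5 fell, beside 6.27% and 26.7% of all genes tested. None of the 35 passed with the deposited values, where 0% of all genes tested rose and 0.189% fell. Of those with the smallest p, *Crebbp* averaged 1165 ± 76.9 normalized counts after siRNA and 713 ± 91.7 after SCR, a difference of 0.71, and *Ep300* averaged 1388 ± 67.4 after siRNA and 862 ± 127 after SCR, a difference of 0.70 (SD, n = 3 each). *Setd2*, the histone H3K36 methyltransferase gene (0.61), and *Asxl1*, a Polycomb-linked gene (0.69), followed. Without SCR replicates 2 and 3, which left 1 SCR library, these 4 genes were at 0.50 (*Crebbp*), 0.46 (*Ep300*), 0.45 (*Setd2*) and 0.46 (*Asxl1*).

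After siRNA in AKT/NRAS, 1 of the 35 rose, 4 fell and 30 did not pass, beside 5.44% and 11.9% of all genes tested, with a median of -0.02 beside -0.03. *Ep300* (-0.14) and the deacetylase gene *Hdac5* (-0.15) fell, as did *Ezh2*, the H3K27 methyltransferase gene (-0.13), and the deacetylase gene *Hdac1* rose (0.14). After centring none of these falls passed. With the deposited values 26 of the 35 rose and 0 fell, beside 56.6% and 0.592% of all genes tested. The interaction was positive and past the threshold for 20 of the 35 and negative for 0, beside 40.6% and 4.76% of all genes tested, with a median of 0.40 beside 0.25. At an unadjusted p under 0.05, 24 of the 35 had an interaction, as did 288 of all 525 genes tested. Without AKT Cre/NRAS SCR replicates 2 and 3 the median of the 35 was 0.27, beside 0.18 for all genes tested. Past the threshold, centring gave 5 positive and 8 negative, beside 9.54% and 28.8% of all genes tested. The deposited values gave 0 positive and 1 negative, beside 0.363% and 5.44%. *Ep300* (0.83), *Crebbp* (0.77), *Setd2* (0.65) and the corepressor gene *Ncor1* (0.61) had the smallest p.

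Between the lines the other regulators were split. Under SCR, 7 of the 35 were higher in AKT Cre/NRAS, 20 lower and 8 did not pass, beside 28.9% and 48.0% of all genes tested, with a median of -0.37 beside -0.22. Without AKT Cre/NRAS SCR replicates 2 and 3 the median of the 35 was -0.39, beside -0.17 for all genes tested. With the deposited values 10 were higher and 4 lower, beside 37.4% and 18.3% of all genes tested. *Hmga2*, an architectural chromatin protein gene, averaged 3544 ± 215 normalized counts in AKT Cre/NRAS and 257 ± 7.83 in AKT/NRAS (SD, n = 3 each), a difference of 3.78, and *Hmga1* differed by 2.38. *Hdac1* (-1.66) and *Setbp1* (-2.49) were lower. Under siRNA, 12 were higher, 11 lower and 12 did not pass, beside 36.6% and 37.9% of all genes tested, with a median of 0.02. *H3f3a*, which encodes the H3.3 that ATRX places, was lower by 0.89 on the log2 scale while *Atrx* was at -0.00.

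**Figure D5:**
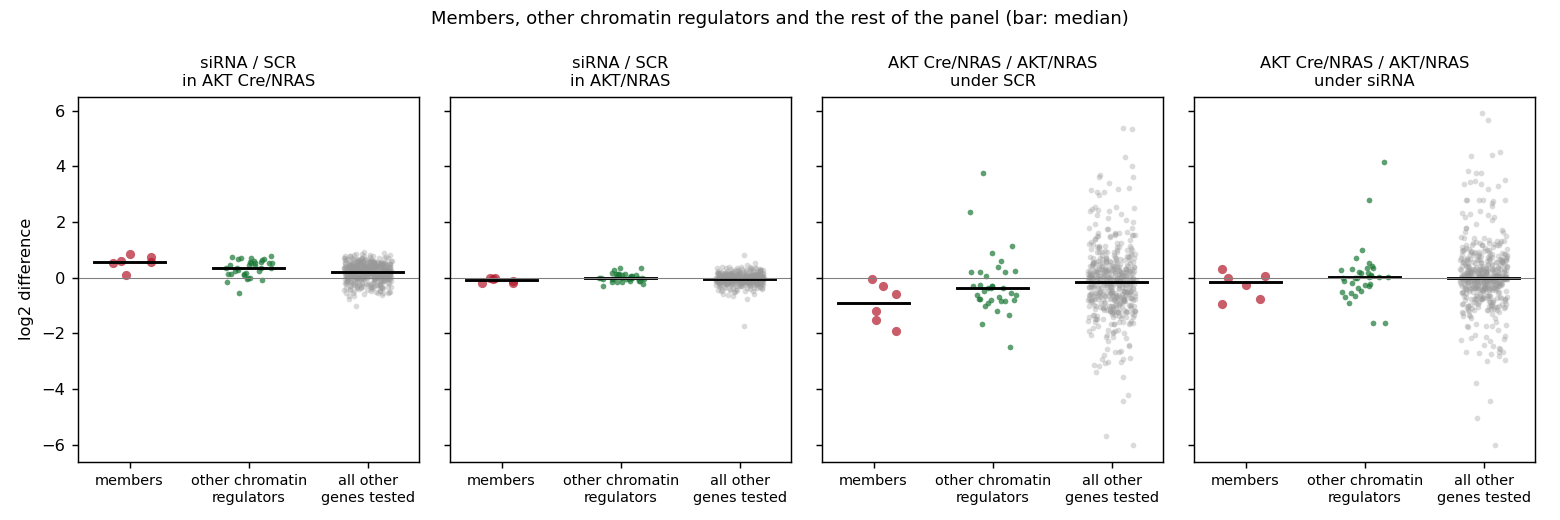
Log2 differences (vertical axis) of the 6 remodelling genes, 35 other chromatin regulators and all other genes tested in 4 comparisons, 1 point per gene with the median as a bar. After siRNA in AKT Cre/NRAS the medians were 0.58 for the remodelling genes and 0.36 for the other regulators.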

How the data were processed

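Total RNA of 12 samples was measured with the nCounter Mouse PanCancer Pathways Panel, which carries 770 genes, 6 positive and 8 negative controls. The deposited values are a signal that the authors made in nSolver. They equal whole barcode counts times 1 positive-control factor per sample (0.827 to 1.27), with values at or under 20 set to 20. Below 300, 100% of the values above that floor were whole within 0.02. The reference gene step named in the methods is not in the deposited values.

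Here geNorm was therefore run without regard to group on the last 20 genes of the table, taken as its reference genes because they follow the alphabetical list, and kept *Abcf1*, *Alas1*, *Edc3*, *Eif2b4*, *G6pdx*, *Hdac3*, *Hprt*, *Nubp1*, *Oaz1*, *Polr1b*, *Ppia*, *Rpl19*, *Sap130*, *Sdha* and *Tbp*, 15 in all. Scaled values under 27.1 were set to that common floor, and log2(value + 1) was fitted with limma 3.58.1 (lmFit, eBayes with an intensity trend) in R 4.3.3. Each fit held the samples of its own comparison, without genes at the floor in all of them. Adjustment was by Benjamini-Hochberg over all genes tested, with a threshold of 0.05. No count model was fitted, because 252 to 293 genes per sample were at the floor and 219 were so in every sample. The fits were tested on simulated data with independent normal noise and the same SD for a gene in every group. A group that spreads more, or a shift shared by many genes, was not simulated. Figures were drawn with matplotlib 3.10.9.

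The remodelling genes and all lists were chosen with earlier results of these data known. All 7 were named, with *Dusp4*, *Rpl19* and *Polr2a*, up to 4 other chromatin regulators per comparison with the smallest p, and the 3 genes most like each member. Replicate numbers are given in the labels without a stated pairing. Samples of the same number deviated together in the AKT Cre/NRAS siRNA comparison (correlations 0.194, 0.103 and 0.183), which meets the criterion of over 0.1 used here, but not in the others, so a fit with the replicate as a block was run as well. A description by transcript length was planned but not made, since the tables used give gene spans. 1 cell type marker is not reported here.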

Additional observations from a re-analysis of the deposited data

Results flagged for a closer look

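The response to *Dusp4* siRNA differed between AKT Cre/NRAS and AKT/NRAS for 5 remodelling genes and for *Dusp4*, by the interaction term of limma over all 12 samples. The term, the AKT Cre/NRAS difference minus the AKT/NRAS difference on the log2 scale, was 0.97 for *Arid1a*, 0.93 for *Arid1b*, 0.78 for *Smarca4*, 0.59 for *Pbrm1* and 0.58 for *Atrx*. For the silenced gene *Dusp4* it was 1.28, from -0.45 in AKT Cre/NRAS and -1.73 in AKT/NRAS, so the silencing was weaker in AKT Cre/NRAS. The part of that in the other 5 terms was not tested. Of all genes tested, 40.6% had a positive interaction past the threshold. All 6 lost the threshold with the deposited values. *Pbrm1* and *Atrx* also lost it after centring on sample medians (0.17 each), and *Pbrm1* with quantile normalization (0.20). The log2 ratio of *Rpl19* to *Polr2a* moved with siRNA in AKT Cre/NRAS (4.72 to 5.03 after siRNA, 5.48 to 6.88 after SCR). The part of that ratio in these differences was not tested.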

How the results depend on the processing

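Limits. The 12 samples and their scaling limit the precision: counting error was at most 7.05% of a member's value, and p values measure the spread between 3 replicates. The median of all genes tested in the AKT Cre/NRAS siRNA comparison was 0.23 as reported, 0.14 for values as deposited, 0.023 with quantile normalization, 0.67 with the 5 reference genes ranked first and -0.10 after samples were centred on their medians, and calls test against 0.

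For siRNA against SCR in AKT Cre/NRAS, 231 genes and 5 members were called (204 higher, 27 lower). This became 1 gene and 0 members with the deposited values, 90 genes (52 higher, 38 lower) and 2 members with quantile normalization, 56 genes and 2 members with no filter, 70 genes with Benjamini-Yekutieli adjustment, and 110 genes without SCR replicates 2 and 3. Centring on the median gave 168 genes (32 higher, 136 lower) and 3 members. Leaving out 1 library gave 99 to 297 genes, under 1.5-fold from 231 only without SCR replicate 1 or 3, and the 5 members were called each time. *Smarcb1* was at -0.24 after centring and with quantile normalization, and *Dusp4* at 0.00098 with the 5 reference genes ranked first.

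For siRNA against SCR in AKT/NRAS, 86 genes and 1 member were called (27 higher, 59 lower). This became 290 genes (287 higher, 3 lower) and 3 members with the deposited values, 45 genes with no filter, 10 genes and 0 members with Benjamini-Yekutieli adjustment, 23 genes and 0 members with 1 fit over all 4 groups, 0 members after centring or quantile normalization, and 2 members with the 10 reference genes ranked first or with genes above the floor in every sample. Centring gave 88 genes (47 higher, 41 lower) and quantile normalization 85 (46 higher, 39 lower). Leaving out 1 library gave 39 to 92 genes (39 without siRNA replicate 3, 49 without SCR replicate 1, 44 without SCR replicate 2) and 1 to 2 members. With the deposited values *Smarca4* was at 0.15, *Arid1a* 0.23, *Arid1b* 0.14, *Pbrm1* 0.32 and *Atrx* 0.30. *Pbrm1* was at 0.043 and *Atrx* at 0.025 after centring, and at 0.038 and 0.026 with quantile normalization. *Smarcb1* was at -0.028 and -0.023 with the 10 and 5 reference genes ranked first. Without 1 library *Smarcb1* ranged from -0.038 to 0.063 and *Pbrm1* from -0.050 to 0.041.

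Between the lines under SCR, 396 genes were called (149 higher, 247 lower). The deposited values called 301 (202 higher, 99 lower) and 3 members instead of 5, centring 405 (224 higher, 181 lower). *Smarcb1* was at 0.48 with the deposited values, 0.33 after centring and 0.31 with quantile normalization (passing as higher in both), 0.15 with all 20 reference genes, 0.088 without AKT Cre/NRAS SCR replicates 2 and 3, and -0.084 to 0.0023 without 1 library. *Pbrm1* was at 0.22 with the deposited values, 0.072 after centring and 0.079 with quantile normalization. Under siRNA *Atrx* was at 0.083 with the deposited values, 0.10 with all 20 reference genes, 0.062 with the 5 ranked first, and -0.027 to 0.019 without 1 library. The interaction called 238 genes, 32 with the deposited values (2 higher, 30 lower) with 0 members, 101 with Benjamini-Yekutieli adjustment, 201 after centring (50 higher, 151 lower) and 190 with quantile normalization (98 higher, 92 lower), against 213 higher and 25 lower as reported. There *Smarcb1* was at -0.31 with the deposited values, -0.30 after centring and -0.28 with quantile normalization (passing as negative in both), and -0.0073 without AKT Cre/NRAS SCR replicates 2 and 3. With the 10 and 5 reference genes ranked first the split was 252 higher and 4 lower, and 254 and 1, after siRNA in AKT Cre/NRAS, and 18 and 87, and 22 and 88, in AKT/NRAS. It was 97 and 281, and 69 and 256, between the lines under SCR, and 305 and 1 for the interaction with the 5. The cause of these shifts was not tested. With the replicate block, siRNA against SCR in AKT Cre/NRAS called 263 genes and 5 members, and the block changed no call of a member or of *Dusp4*. The fits without AKT Cre/NRAS SCR replicates 2 and 3, the ratios and the other settings for the 35 chromatin regulators were chosen after seeing the data.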
